A study of Rattus norvegicus with 6 samples.

Results

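The genes described here take part in deciding whether an oocyte of the young ovary lives or dies by apoptosis. They were chosen by name as 8 genes, namely Bcl2, Bcl2l1 and Mcl1, which encode survival proteins, Bax, which encodes a pore-forming effector, Bbc3 and Bcl2l11, which encode the BH3-only death triggers Puma and Bim, Casp2, which encodes an initiator caspase, and Tp63, which encodes a transcription factor of the p53 family. The members are the probe sets that carry 1 of these symbols and no other in the array annotation. There were 14 such probe sets among 31042 on the array, and they covered 7 of the 8 genes. The annotation names Bax only together with another symbol, so Bax has no probe set here and no value is given for it.

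Whole ovaries were taken from 4-day-old female Sprague-Dawley rats and cultured on floating filters for 48 h. The 3 control samples received no factor, and the 3 NT3 samples received recombinant human NT3, a neurotrophin, at 50 ng/ml. Both groups shared the same culture medium with albumin, ascorbic acid and transferrin. Each sample was RNA from 2 to 3 ovaries homogenised together and hybridised to 1 Affymetrix array, and the labels call the replicates biological without saying whether they came from separate litters. The p-values therefore measure the spread between these samples only, and 3 arrays per group limit the precision of every value. Per the series title the study is about NT3 and the step from primordial to primary follicle, and the question here is whether transcripts of the death machinery differ when NT3 is present.

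In the perinatal rodent ovary most oocytes are lost, and the survivors are enclosed in primordial follicles. Survival proteins of the BCL2 family hold effectors such as Bax in check on the mitochondrial membrane, and BH3-only proteins release that hold. Once the membrane is breached, cytochrome c activates caspases through the apoptosome. In arrested oocytes the long p63 isoform with a transactivation domain acts as a guardian, since the DNA damage kinase Chk2 activates it and it then turns on Bbc3. Neurotrophin receptors are known in neurons to support survival through PI3K and Akt, which keep the forkhead factor Foxo3 out of the nucleus, and Foxo3 is also known to hold primordial follicles at rest. Bcl2l11 is a textbook target of forkhead factors.

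The promoter of Bcl2l11 is shown because, of the genes with a promoter window here, it alone carried the forkhead motif that was searched. RefSeq windows from 250 bases before to 50 bases after a gene's start, in the GRCr8 build, were held for 6 of the 8 genes. The window of Bcl2l11 lies at chr3:135819792-135820091 on the plus strand, and the capitals mark the motif, which begins 204 bases before the start.

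Bcl2l11: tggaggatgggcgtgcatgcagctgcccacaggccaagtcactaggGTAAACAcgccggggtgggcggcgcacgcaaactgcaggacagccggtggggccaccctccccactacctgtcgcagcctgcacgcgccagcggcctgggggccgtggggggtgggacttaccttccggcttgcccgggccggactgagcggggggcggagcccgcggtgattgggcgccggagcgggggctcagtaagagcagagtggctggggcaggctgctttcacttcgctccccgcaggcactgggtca

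The forkhead motif searched was GTAAACA on both strands, and it occurred in 1 of the 9 windows of the 6 genes and in 3.78% of all 33469 windows. The cyclic AMP response element TGACGTCA, also searched on both strands, occurred in none of the 9 windows and in 1.83% of all windows. A match describes these letters only.

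Signals were deposited on a linear scale with a trimmed mean of 210.1 on each array. A probe set was tested when its mean log2 signal reached the 40th percentile of the array, a signal of 41.3, and 8 of the 14 member probe sets did. These 8 represent Bcl2l1, Mcl1, Bbc3, Bcl2l11, Casp2 and Tp63, with 2 probe sets each for Mcl1 and Casp2. Control replicate 2 stood apart in RNA quality. Its beta-actin probe sets gave a 3′ over 5′ ratio of 6.83, where the other 5 arrays gave 2.42 to 2.91, and several fold changes are also given without it. It was the lowest of the 6 arrays for 4 of the 8 tested member probe sets, against 27.5% of all tested probe sets, and the part of RNA quality in these low values was not tested. The ovarian origin was plain in the marker genes, with the zona pellucida genes Zp2 and Zp3 at 4804 ± 238 and 4285 ± 75.4 and the granulosa factor gene Foxl2 at 527 ± 81.9 in control (SD, n = 3). Markers of other cells were read beside the members. All 6 stromal markers had higher fitted levels in NT3 (5 of 6 without control replicate 2), beside 47.4% of all genes tested. Their median log2 fold change was 0.14, with summed signals of 25661 to 26598 in control and 26973 to 29234 in NT3. These counts use 1 probe set per gene, and another tested probe set of Col1a1 went the other way. Of the macrophage and leukocyte markers 6 of 8 were higher, with sums of 2535 to 3148 and 2514 to 3419, and of the 4 endothelial markers tested 0 were higher, with sums of 1396 to 1725 and 1256 to 1662. Of the granulosa markers 3 of 9 were higher, with sums of 7080 to 7907 and 7298 to 7616. Kitlg, Wt1 and Gata4 each had another tested probe set that went the other way. Without control replicate 2 the counts were 5 of 8 for the macrophage and leukocyte list, 0 of 4 for the endothelial list and 5 of 9 for the granulosa list. None of these marker genes passed limma's test, and their part in the values below was not tested. In whole ovaries, fewer cells of a type and less RNA per cell cannot be told apart.

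No member passed the test for a difference between NT3-treated and control ovaries. By limma with Benjamini-Hochberg adjustment, 0 of the 8 tested member probe sets had an adjusted p under 0.05, and over the whole array the count was 0 of 18625, or 0%. The count at an unadjusted p under 0.05 was 0 of 8, with p-values from 0.263 to 0.750, beside 1.29% of all tested probe sets. With a block for replicate number the unadjusted count was 0 of 8, beside 2.15%. In 0 of the 8 did every NT3 array lie on one side of every control array, where 5.83% of all tested probe sets showed such groups. The log2 fold change was above 0 in 5 of the 8, beside 49.8% of all. When arrays of equal replicate number were compared, 0 of the 8 had the same sign in all 3 pairs, beside 21.1% of all tested probe sets. The median absolute log2 fold change was 0.13 among the 8 and 0.100 over all tested probe sets.

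**Figure D1:**
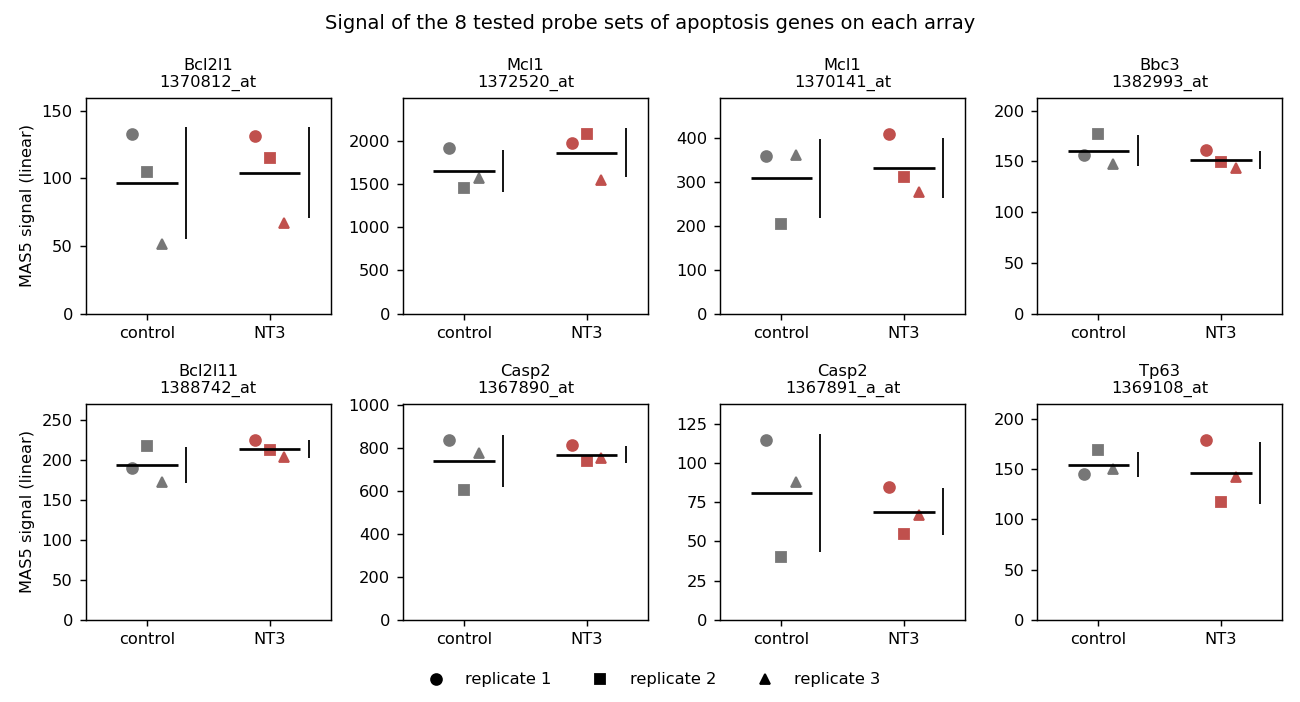
Deposited MAS5 signal (linear, vertical axis from 0) of the 8 tested member probe sets in control (grey) and NT3 (red) ovaries, with a symbol for each replicate number, the group mean as a horizontal line and ± 1 SD as a vertical line. In every panel the 2 groups overlap, as for Mcl1 probe set 1372520_at, whose control arrays reach 1922 and whose lowest NT3 array is at 1541.

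Among the survival genes, Mcl1 encodes a short-lived protein that binds and restrains Bim and Bak. Its first probe set, 1372520_at, read 1922, 1450 and 1575 in the control ovaries, by replicate number, and 1972, 2080 and 1541 in the treated ones. The highest 2 arrays were NT3 arrays, but NT3 replicate 3 lay below control replicates 1 and 3. The control mean was 1649 ± 245 and the NT3 mean 1864 ± 285 (SD, n = 3). The log2 fold change was 0.18 ± 0.15 (SE) and the adjusted limma p 1.00. The 95% interval ran from 0.897-fold to 1.42-fold. The sign held with each array left out in turn, at 0.088 to 0.31.

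The second Mcl1 probe set, 1370141_at, read 358.1, 204.3 and 360.7 in control and 409.1, 309.9 and 277.1 in NT3. Control replicate 2 was the lowest array, and the other controls lay between the highest and the middle NT3 array. All 6 arrays gave a log2 fold change of 0.14 ± 0.24 (SE), which was -0.13 without control replicate 2 and -0.023 without NT3 replicate 1. The 2 probe sets of Mcl1 thus pointed the same way with all arrays and opposite ways without control replicate 2, where the first gave 0.088.

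Bcl2l1 encodes Bcl-x, whose long form protects cells and whose short form promotes death. Its tested probe set, 1370812_at, read 132.9, 104.9 and 51.8 in the control ovaries, by replicate number, and 131.0, 115.1 and 66.9 in the treated ones. The arrays fell together by replicate number and not by treatment, with both number 1 arrays above both number 2 arrays and those above both number 3 arrays. Such an ordering, in which the 3 pairs of equal number do not overlap, occurred in 2 of the 8 tested member probe sets, this one and Casp2 probe set 1367890_at, and in 13.2% of all tested probe sets. The log2 fold change was 0.16 ± 0.37 (SE). A fit that treats replicate number as a block had an SE of 0.18 and an unadjusted limma p of 0.398. Within the pairs of equal number the log2 difference of NT3 from control was -0.021, 0.13 and 0.37. The log2 fold change was -0.24 without control replicate 3, -0.032 without NT3 replicate 1 and 0.27 without control replicate 2.

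The genes whose pattern over the 6 arrays was most like that of Bcl2l1 were Hp, Stx11 and Fam219b. Likeness was the root mean square difference of mean-centred log2 signals, taken over 2719 genes whose range was at least 50% of the member's, and it was 0.11, 0.19 and 0.21 for these 3 against a median of 0.57. Hp read 129.2, 104.2 and 57.5 in control and 135.9, 112.9 and 81.0 in NT3. It too followed the replicate number, which its choice by likeness to Bcl2l1 entails. The remaining 2 probe sets of Bcl2l1 lay below the signal filter, 1370485_a_at between 18.5 and 41.6 and 1369180_at between 0.80 and 29.6, and were not tested.

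Bcl2 encodes the founding survival protein of the family. Its only probe set, 1387611_at, was also below the filter, reading 32.8, 23.6 and 26.8 without NT3 and 17.7, 18.9 and 25.5 with it. NT3 replicate 3 lay above control replicate 2, so the groups overlapped. At these signals the group means were 27.7 ± 4.67 without and 20.7 ± 4.20 with NT3 (SD, n = 3), and a fit with no signal filter gave -0.43 ± 0.37 (SE), with an interval from 0.416-fold to 1.33-fold. The log2 difference within the pairs of equal number was -0.89, -0.32 and -0.072, lower with NT3 each time. The fit without control replicate 2 gave -0.54 ± 0.41 (SE). Bcl2l1 probe sets below the filter also kept their sign over the 3 pairs, but in opposite directions. They had 0.13, 0.34 and 0.021 for 1370485_a_at and -0.40, -1.03 and -2.83 for 1369180_at. The untested probe sets of Bcl2l11 and Tp63 had mixed signs. The share over all probe sets below the filter was not counted.

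**Figure D2:**
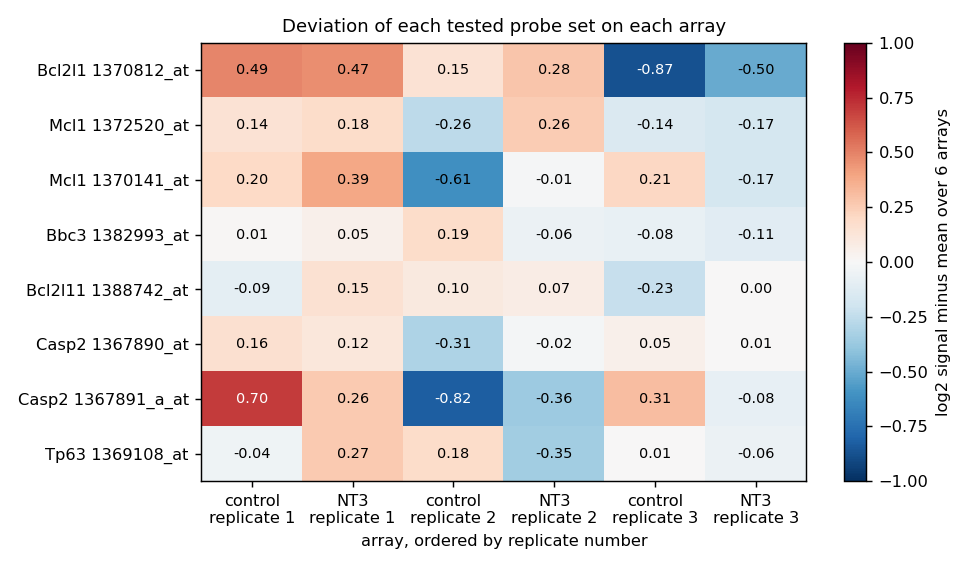
Log2 signal of each tested member probe set (rows) on each array (columns, ordered by replicate number), minus its mean over the 6 arrays, with the value in each cell. Bcl2l1 goes from 0.49 and 0.47 on the number 1 arrays to -0.87 and -0.50 on the number 3 arrays, and control replicate 2 holds the low values of Mcl1 probe set 1370141_at (-0.61) and Casp2 probe set 1367891_a_at (-0.82).

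The tested BH3-only probe sets had the narrowest ranges of the 8 over the 6 arrays. Bbc3 encodes Puma, the trigger that p53-family factors switch on in damaged oocytes, and its probe set 1382993_at read 156.5, 177.0 and 147.3 in control and 160.9, 149.6 and 143.9 in NT3. All 6 values lay within 1.23-fold of each other, and the groups were interleaved. The means were 160 ± 15.2 and 152 ± 8.65 (SD, n = 3), the log2 fold change was -0.079 ± 0.15 (SE), and the 95% interval ran from 0.751-fold to 1.19-fold. Without control replicate 2, the highest array, the log2 fold change was -0.0050.

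Bcl2l11 encodes Bim, whose promoter is printed above. Probe set 1388742_at read 189.7, 217.2 and 172.5 in control and 224.8, 212.7 and 203.1 in NT3. The NT3 arrays were above control replicates 1 and 3, and control replicate 2 lay among them. From 193 ± 22.6 to 214 ± 10.9 (SD, n = 3), the log2 fold change was 0.15 ± 0.14 (SE), with an interval from 0.888-fold to 1.39-fold and an adjusted limma p of 1.00. Without control replicate 2 it was 0.24 ± 0.13 with an unadjusted p of 0.0979, and the sign held with each array left out. The other probe sets of Bcl2l11 were below the filter, 1370787_at between 13.1 and 47.0 and 1387338_s_at between 1.80 and 9.10.

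Casp2 encodes caspase-2, an initiator that has been linked to the death of oocytes. Probe set 1367890_at read 837.0, 604.5 and 776.5 in control and 812.5, 738.6 and 752.3 in NT3. Control replicate 2 was the lowest array and control replicate 1 the highest, with all 3 NT3 arrays between them. The log2 fold change was 0.067 ± 0.14 (SE) with all arrays, with an interval from 0.847-fold to 1.30-fold, and -0.072 without control replicate 2.

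The second Casp2 probe set, 1367891_a_at, read 114.6, 40 and 87.6 in control and 84.6, 55.0 and 66.9 in NT3. Control replicates 1 and 3 were the highest arrays and control replicate 2 was the lowest, so the NT3 arrays lay inside the control range. All arrays gave a log2 fold change of -0.12 ± 0.37 (SE). Leaving out control replicate 2 gave -0.56 ± 0.24, where the unadjusted limma p was 0.0409 and the adjusted p 0.999. With the replicate block as well, in a fit on 2 pairs, it was -0.41 ± 0.22 with an unadjusted p of 0.0817. In the comparison without control replicate 2 and without the block it was the 1 member probe set of 8 with an unadjusted p under 0.05, beside 3.52% of all tested probe sets. The 5 arrays left there had beta-actin ratios of 2.42 and 2.60 in control and 2.78 to 2.91 in NT3, and the part of RNA quality was not tested. The log2 fold change was 0.20, 0.0014 and 0.028 without control replicate 1, control replicate 3 and NT3 replicate 2. Without control replicate 2 the groups no longer overlapped in 2 of the 8 probe sets, this one and Bcl2l11 probe set 1388742_at, beside 18.5% of all tested probe sets in that comparison.

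The products of Cradd and Pidd1 bind caspase-2 and assemble it into an activating complex. Cradd read 214.6, 204.6 and 217.7 in control and 192.4, 189.3 and 199.5 in NT3, so all 3 NT3 arrays were lower, with a log2 fold change of -0.13 ± 0.13 (SE) and an unadjusted limma p of 0.322. Pidd1 had group means of 69.1 ± 14.6 without and 81.3 ± 10.8 with NT3 (SD, n = 3), a log2 fold change of 0.25 ± 0.22 (SE), and without control replicate 2 it had 0.41 with an unadjusted limma p of 0.0748. Neither passed the test, and their estimates had opposite signs.

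Tp63 encodes p63. Probe set 1369108_at read 144.9, 169.0 and 149.9 in control and 179.2, 117.0 and 142.8 in NT3. Both the highest and the lowest array belonged to NT3, and all 3 controls lay between them. The means were 155 ± 12.7 and 146 ± 31.3 (SD, n = 3), the log2 fold change was -0.098 ± 0.19 (SE) with an interval from 0.698-fold to 1.25-fold, and the adjusted limma p was 1.00. The log2 fold change was 0.052 without NT3 replicate 2 and -0.032 without control replicate 2. The second Tp63 probe set, 1371107_a_at, was below the filter at 13.4 to 30.0, and its extremes fell on the same 2 arrays.

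NT3 replicate 2, the low array for Tp63, also had the lowest median deviation of the 6 for the oocyte markers. Over 9 tested oocyte genes it was -0.15 on that array and -0.044 to 0.16 on the others on the log2 scale. NT3 replicate 1, the high array for Tp63, had 0.047. The list was split on NT3 replicate 2. Gdf9, Zp1, Zp2 and Zp3 were lowest there, while Sycp3 and Sohlh1 were higher there than on most arrays, at 848.4 and 471.1. Of the 9 oocyte markers 4 had higher levels in NT3, with a median log2 fold change of -0.042, and without control replicate 2 the count was 1 of 9 with a median of -0.096. The summed signal of these markers ranged from 15769 to 16993 over controls and from 14188 to 17104 over NT3 arrays, and their part in the Tp63 values was not tested. Of the stratified epithelium markers, which mark the other tissue type where p63 is known to be high, Krt5 was below the filter, with means of 24.6 ± 14.1 without and 27.0 ± 9.79 with NT3, and Krt14 had 118 ± 24.0 and 132 ± 13.8 (SD, n = 3). The summed signal of the 2 tested genes of that list, Krt14 and Krt15, was 137.4 to 195.4 in control and 165.8 to 211.2 in NT3.

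By the same measure as for Bcl2l1, over 8376 genes, the patterns most like that of Tp63 were those of Cmc2, Mettl8 and Trappc9, at 0.052, 0.060 and 0.061 against a median of 0.27. Cmc2 read 271.1, 354.8 and 296.6 in control and 342.7, 230.1 and 284.9 in NT3. It was low on NT3 replicate 2 as Tp63 was, which its choice by likeness entails.

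**Figure D3:**
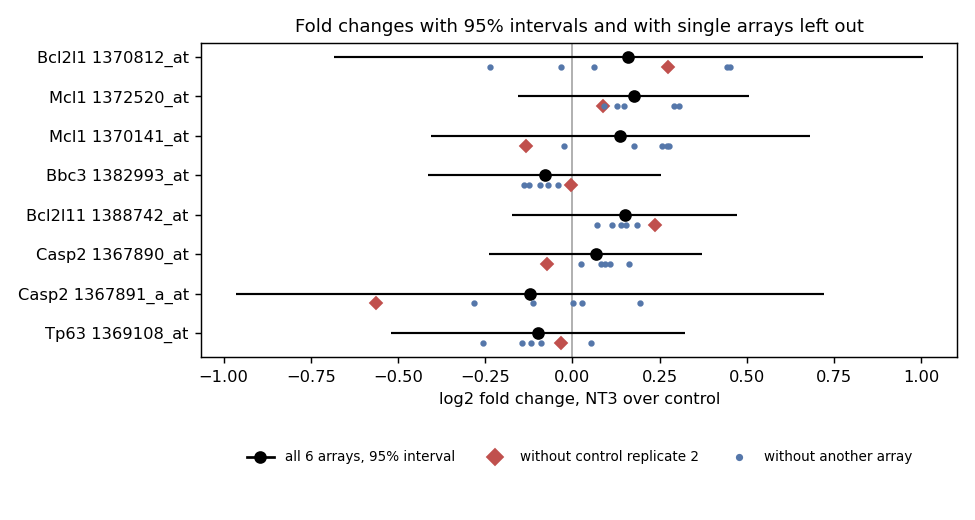
Log2 fold change of NT3 over control for each tested member probe set (black point) with its 95% limma interval (line), and the estimates with single arrays left out below it (red diamond without control replicate 2, blue points without another array). Intervals are from the fit without a replicate block. Every interval includes 0, and the widest, of Bcl2l1 and Casp2 probe set 1367891_a_at, reach 2.01-fold up and 0.512-fold down.

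The intervals, from the fit without a replicate block, show what that fit can say of each gene. For Mcl1 probe set 1372520_at, Bbc3, Bcl2l11 and Casp2 probe set 1367890_at, the SE of the log2 fold change lay between 0.14 and 0.15, and for Bcl2l1 and Casp2 probe set 1367891_a_at it was 0.37, against a median of 0.18 over all tested probe sets. A 2-fold change in either direction lay outside the intervals of the former 4 probe sets, and for Bcl2l1 a 2-fold increase lay inside. With the replicate block the SE was 0.18 for Bcl2l1 and 0.24 for Casp2 probe set 1367891_a_at, and intervals of that fit are not given here.

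The rest of the apoptosis pathway was read from 9 lists. They name 72 genes, the annotation holds 60 of them and 55 passed the filter, with the probe set of highest mean signal for each gene. Of these 55, 28 were higher and 27 lower in NT3, with a median log2 fold change of 0.0010. Over all 10600 genes tested, 47.4% were higher. By limma 0 of the 55 had an adjusted p under 0.05, beside 0% of all genes, and 1 had an unadjusted p under 0.05, beside 1.17%. Without control replicate 2 the split was 23 higher and 32 lower, with a median of -0.025.

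The gene with the lowest p was Chek2, which encodes the checkpoint kinase Chk2 that activates p63 in damaged oocytes. It read 74.0, 60.2 and 81.5 in control and 31.4, 41.6 and 57.0 in NT3, so the 3 treated samples lay below the 3 controls, with NT3 replicate 1 below the signal of 41.3 that the filter asks of the mean and NT3 replicate 2 close to it. The log2 fold change was -0.76 ± 0.27 (SE), with an interval from 0.386-fold to 0.901-fold, an unadjusted limma p of 0.0201 and an adjusted p of 1.00, so that it did not pass the test. With single arrays left out the estimate stayed between -0.98 and -0.55. In the same list of 15 tested genes of DNA damage and p53 signalling, 7 were higher and 8 lower with a median of -0.0099, or 6 higher with a median of -0.079 without control replicate 2, and Ccng1, a p53 target encoding cyclin G1, read 642.9, 603.4 and 628.4 in control and 715.2, 731.9 and 699.6 in NT3. Its log2 fold change was 0.20 ± 0.096 (SE) with an unadjusted limma p of 0.0723.

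Among 7 tested genes of PI3K survival signalling, 3 were higher and 4 lower, both with all arrays and without control replicate 2. The median log2 fold change was -0.011 and -0.030. Akt2, which encodes a survival kinase, read 337.7, 399.7 and 372.5 in control and 321.4, 304.0 and 311.6 in NT3. Its log2 fold change was -0.24 ± 0.12 (SE) with an unadjusted limma p of 0.0714, and 1 of its other tested probe sets went the other way. Without control replicate 2, its highest array, the estimate was -0.18 with an unadjusted limma p of 0.129. Pik3ca, which encodes a catalytic subunit of the kinase, had -0.17 ± 0.14 with all arrays and -0.030 without control replicate 2, and 2 of its other tested probe sets had the opposite sign.

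Other BCL2 family genes were divided. Of 3 tested survival genes, 1 was higher and 2 were lower, and 0 were higher without control replicate 2. Bcl2l2, which encodes Bcl-w, had means of 129 ± 32.3 without and 148 ± 24.0 with NT3 (SD, n = 3). The gene's log2 fold change was 0.23 ± 0.23 (SE), but -0.0038 without control replicate 2. Bcl2l10, whose product is found in oocytes, had -0.19 ± 0.30 with NT3 replicate 2 the lowest array at 83.9, which became 0.14 without that array and -0.37 without control replicate 2. Bok, the only tested effector, had 1400 ± 107 without and 1408 ± 26.7 with NT3 (SD, n = 3), a log2 fold change of 0.011 ± 0.096 (SE) or 0.072 without control replicate 2. The other tested probe set of Bok had the opposite sign, and Bak1 was below the filter. Of 5 tested BH3-only genes, 4 were higher, among them Bnip3 at 0.081 ± 0.12 and Bid at 0.14 ± 0.25 (SE), and without control replicate 2 these were -0.025 and -0.011 and the count 2 of 5.

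Of 4 tested caspases, 3 were higher, with Casp12 at 0.20 ± 0.26 (SE) and -0.043 without control replicate 2, and Casp6 at 0.039 ± 0.15. Of 8 apoptosome, adaptor and nuclease genes, 4 were higher and 4 lower, and Dffa, which encodes the inhibitor of the caspase-activated nuclease, had means of 210 ± 10.5 without and 186 ± 13.2 with NT3 (SD, n = 3), with all NT3 arrays lower. The log2 fold change of Dffa was -0.18 ± 0.13 (SE). Of 4 inhibitor of apoptosis genes, 2 were higher, with Birc2 at -0.13 ± 0.12 and Birc5 at 0.099 ± 0.15 (SE). Without control replicate 2 the count was 1 of 4, with Birc2 at -0.20 and an unadjusted limma p of 0.0905, and Birc5 at 0.041. Of 8 death receptor pathway genes, 3 were higher and 5 lower with a median of -0.11, and Tnf, the cytokine that opens this route, read 55.1, 107.3 and 69.0 without and 63.2, 42.9 and 52.9 with NT3. Its log2 fold change was -0.50 ± 0.29 (SE), or -0.24 without control replicate 2, its highest array. Cflar, which encodes a caspase-8 inhibitor, had -0.23 ± 0.23 (SE).

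Groups that did not overlap occurred in 5 of the 55 genes, Chek2, Ccng1, Akt2, Dffa and Cradd, of which Cradd was named after its values were seen. Over all genes tested this occurred in 5.74%.

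**Figure D4:**
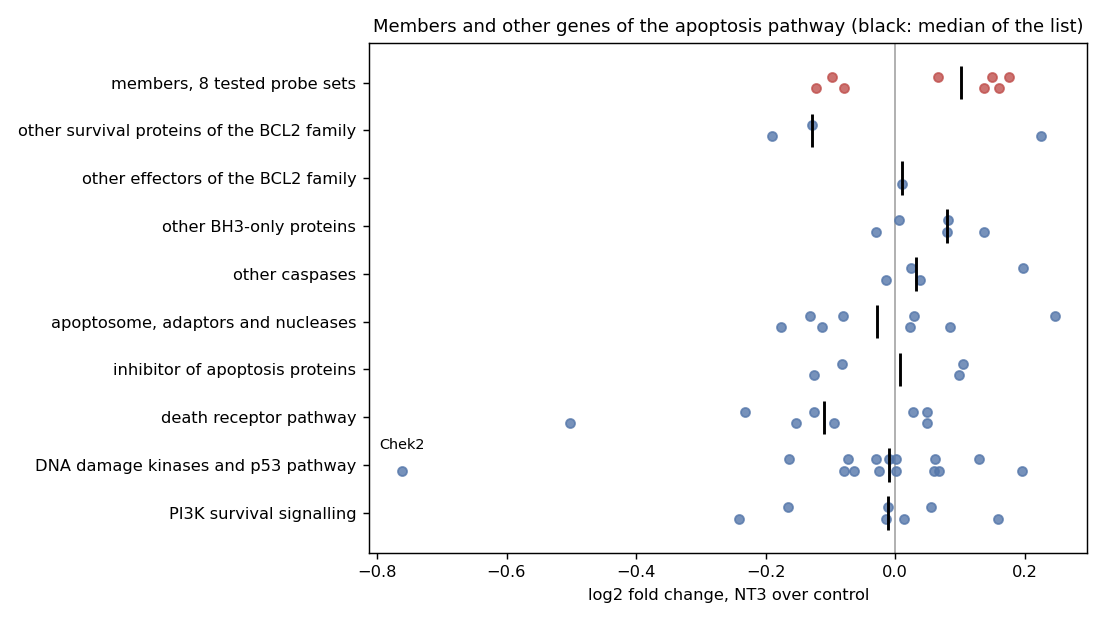
Log2 fold change of NT3 over control for the 8 tested member probe sets (red) and for the tested genes of 9 other apoptosis lists (blue), each list with its median as a black line. The vertical offset of points only separates them. The list medians lie between -0.13 and 0.10, and Chek2, the only labelled gene, lies at -0.76 with an adjusted limma p of 1.00.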

How the data were processed

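The authors deposited linear signal intensities, 1 per probe set and array, made with MAS5 per the submitters' processing notes. Its version was not given in these sources. Signals are relative, and levels of different probe sets were not read as differences in transcript amount. Levels served to filter, to choose a gene's probe set of highest mean signal and to sum marker lists, where strong probe sets weigh most. After 57 control probe sets were removed, the signals were put on the log2 scale without rescaling, with a floor of 0.1. Probe sets with a mean log2 signal under the 40th percentile were left out. Detection calls were not used here. NT3 was compared with control over all 18625 remaining probe sets by a 2-sided limma test (R 4.3.3, limma 3.58.1) with a trended variance. Calls were made at a Benjamini-Hochberg adjusted p under 0.05. The fit was tested on simulated data, with changes far larger than those of the members and no shared replicate effect. That test does not cover changes as small as theirs. Array number limits precision.

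Gene names come from the array annotation, which gives 1 symbol for 20826 probe sets, several for 436 and none for 9780. All probe sets of the members are named, from each other list up to 2 genes with the lowest unadjusted p, and for the 2 members of widest range, each gene taken at its probe set of highest mean signal, the 3 genes of nearest pattern. The members and lists were chosen with earlier results of these data known. No set test was made. Control and NT3 samples share replicate numbers, and their deviations from the mean of their group were correlated over all tested probe sets. The correlations were 0.230, 0.247 and 0.222 for equal numbers and -0.246 to 0.029 for unequal ones. Deviations within a group sum to 0, which ties these values to each other. The numbers were taken to pair the samples on this evidence from the data, with no statement in the labels. The main fit had no block for them, and its SE, intervals and p-values ignore the pairing unless a block is named.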

Additional observations from a re-analysis of the deposited data

How the results depend on the processing

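No alternative called a member probe set, the lowest adjusted limma p over them being 0.982. With the replicate block the array-wide count at an unadjusted p under 0.05 was 401 against 240, with 0 member probe sets at that level, and it changed no call. With the block and control replicate 2 left out, limma called 4 probe sets over the array, Hnrnpa2b1 and 3 without a single symbol, from a fit that rests on 2 pairs. In that fit the log2 fold change was -0.094 for Mcl1 probe set 1370141_at, 0.0032 for Bbc3, -0.044 for Casp2 probe set 1367890_at and 0.12 for Tp63, each of opposite sign to the fit of all arrays. On the arrays of that fit, 2 member probe sets had groups that did not overlap, beside 18.5% of all tested probe sets. With array weights the estimates were -0.00049 for Mcl1 probe set 1370141_at, -0.025 for Casp2 probe set 1367890_at and 0.0083 for Tp63, again of opposite sign. Quantile normalization, median centring, other filters, an offset of 16 and no trend turned no member's sign. With single arrays left out, 9 of 48 member estimates changed sign. They ranged from -0.24 to 0.45 for Bcl2l1, 0.088 to 0.31 and -0.13 to 0.28 for the Mcl1 probe sets 1372520_at and 1370141_at, -0.14 to -0.0050 for Bbc3, 0.072 to 0.24 for Bcl2l11, -0.072 to 0.16 and -0.56 to 0.20 for the Casp2 probe sets 1367890_at and 1367891_a_at, and -0.26 to 0.052 for Tp63. Over these fits 0 to 1 member probe sets had an unadjusted p under 0.05, 0 to 2 had groups that did not overlap, and 23 to 28 of the 55 pathway genes were higher in NT3. The causes were not tested. The planned balance of Bax and Bcl2 was not run, since no probe set carries Bax alone and that of Bcl2 is below the filter.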
